A study of Mus musculus with 8 samples.

Results

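The trypsinogen genes of the mouse lie side by side on chromosome 6, and 10 of them were examined here: Prss1, Prss2, Prss3, Try4, Try5, Try10, Gm2663, Gm5771, Gm10334 and 1810009J06Rik. They were picked by name from 20715 listed genes, with their levels in ob/ob against ob/+ islets and their ratios to Prss2 already known. The genotype differences of these 10 genes are therefore given as a description. Where a fit over all genes calls some of them, nothing is read from those calls. The series holds 8 libraries of total RNA from pancreatic islets of 12-week-old C57BL/6 mice, 4 from ob/ob mice and 4 from ob/+ mice. Both genotypes carry the ob mutation of the leptin gene Lep, in 2 copies in ob/ob mice and in 1 copy in ob/+ mice, so no wild-type islets stand beside them. The islets were freed with collagenase, enriched on a density gradient and picked by hand. Whether the libraries come from separate animals is not stated in the labels, and the p-values below reflect the spread between these libraries alone.

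Trypsinogens are the inactive precursors of trypsin, which acinar cells of the exocrine pancreas store in zymogen granules and secrete into the gut. There enteropeptidase cuts off a short peptide, and the trypsin that forms activates the other digestive enzymes. Islets are the endocrine part of the pancreas and are not known as a source of digestive enzymes. The mouse carries many more trypsinogen genes than the human genome, and most of the acinar protein comes from a few of them.

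All 10 genes are annotated as protein-coding on chromosome 6 of GRCm38 (GENCODE M21), within 560 kb. In order of position they are 1810009J06Rik (chr6:40964754-40968435, plus strand), Gm2663 (chr6:40995830-40999479, minus), Try4 (chr6:41302269-41305532, plus), Try5 (chr6:41311233-41316841, minus), Try10 (chr6:41354105-41357914, plus), Prss3 (chr6:41373814-41377678, minus), Gm5771 (chr6:41392356-41397230, plus), Gm10334 (chr6:41442216-41446145, minus), Prss1 (chr6:41458932-41463786, plus) and Prss2 (chr6:41521787-41525079, plus). The Lep gene, the site of the ob mutation, lies on the same chromosome at chr6:29060220-29073877, with its start 11.9 to 12.5 Mb from the starts of these genes. The cluster is thus linked to the mutant locus, and genotype at Lep and inherited sequence around the cluster cannot be told apart in this design.

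RefSeq promoters of the same build (GRCm38.p6) were found for 7 of the 10 genes, each with 250 bases before and 50 bases after the annotated start. Those of 5 genes are shown because they cover the pattern described below: Gm2663, Prss3 and Prss1 belong to the genes whose levels did not overlap between the genotypes, and Prss2 and Try4 to the abundant genes that overlapped. They are read 5′ to 3′ on the strand of each gene, from chr6:40999430-40999729 (minus) for Gm2663, chr6:41377564-41377863 (minus) for Prss3, chr6:41458680-41458979 (plus) for Prss1, chr6:41302022-41302321 (plus) for Try4 and chr6:41521526-41521825 (plus) for Prss2. Capitals mark 3 motifs: the E-box CACCTG or its complement CAGGTG, the RBPJ core TGGGAA or its complement TTCCCA, and the TATA box TATAAA, which was searched on the strand of the gene only.
Gm2663: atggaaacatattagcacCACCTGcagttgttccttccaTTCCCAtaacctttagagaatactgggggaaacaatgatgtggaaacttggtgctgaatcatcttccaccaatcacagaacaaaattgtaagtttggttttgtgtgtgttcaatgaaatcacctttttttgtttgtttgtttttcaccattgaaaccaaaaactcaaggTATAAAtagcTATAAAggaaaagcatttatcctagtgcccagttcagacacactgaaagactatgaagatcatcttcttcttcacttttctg
Prss3: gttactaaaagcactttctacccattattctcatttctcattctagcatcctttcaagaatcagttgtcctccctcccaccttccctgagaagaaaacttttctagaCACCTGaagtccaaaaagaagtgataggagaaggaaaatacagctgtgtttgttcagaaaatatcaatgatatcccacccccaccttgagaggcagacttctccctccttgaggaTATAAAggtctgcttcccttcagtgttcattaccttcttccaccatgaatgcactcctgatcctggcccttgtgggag
Prss1: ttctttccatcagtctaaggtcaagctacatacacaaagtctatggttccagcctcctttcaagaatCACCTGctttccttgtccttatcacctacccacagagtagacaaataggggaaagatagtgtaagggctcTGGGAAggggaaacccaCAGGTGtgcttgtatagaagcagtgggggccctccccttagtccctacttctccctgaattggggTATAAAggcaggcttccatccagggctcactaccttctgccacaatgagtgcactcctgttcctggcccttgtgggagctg
Try4: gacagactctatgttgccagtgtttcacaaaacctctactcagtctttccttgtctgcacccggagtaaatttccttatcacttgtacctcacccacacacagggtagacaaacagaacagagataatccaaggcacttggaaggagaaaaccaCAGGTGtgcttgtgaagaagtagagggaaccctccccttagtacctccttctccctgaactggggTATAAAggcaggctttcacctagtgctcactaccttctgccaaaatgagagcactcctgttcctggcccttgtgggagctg
Prss2: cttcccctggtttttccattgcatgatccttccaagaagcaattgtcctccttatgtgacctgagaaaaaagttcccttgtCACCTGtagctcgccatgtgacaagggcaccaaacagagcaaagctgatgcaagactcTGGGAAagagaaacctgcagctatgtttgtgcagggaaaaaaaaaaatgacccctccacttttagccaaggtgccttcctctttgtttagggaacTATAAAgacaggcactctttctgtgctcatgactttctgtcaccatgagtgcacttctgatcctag
The E-box and the RBPJ core are the letters read by the PTF1 complex, the acinar transcription factor formed by Ptf1a and Rbpjl, and the motifs do not overlap one another in the letters searched. The E-box was present in 7 of 7 trypsin promoters, against 20.2% of 32851 RefSeq promoters of the same length. TATAAA was also present in 7 of 7, against 8.32% of all promoters. TGGGAA was found in 4 of 7 (Gm2663, Gm5771, Prss1 and Prss2), against 25.6% of all. These matches describe the letters and not binding. Some of the 7 promoters are near copies of one another, as given below, so they are not independent cases to set against all promoters. The spacing between the motifs was not tested. Of the promoters shown, those of Prss1, Prss2 and Gm2663 held all 3 motifs, and TGGGAA was not in the windows of Try4 and Prss3. The promoters of Prss1 and Gm5771 were 97.5% identical over the aligned bases and those of Prss3 and Gm10334 96.8%. The Prss1 promoter was 83.7% identical to that of Try4 and 68.7% identical to that of Prss2.

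The values were taken as FPKM, fragments scaled to transcript length and to the mapped total. This unit was inferred from their range and sums and is named in no header or label. Comparisons of levels between genes rest on it. Depth per library is unknown, since the files give no counts. The steps between low values put 1 read at the length of Prss1 at roughly 0.07 FPKM. The range was 0.0699 to 0.0783 over the libraries, with 0 or 100 bases taken off the transcript lengths. The ob/+ values below 1 FPKM thus rest on few reads. Beta cell markers dominated every library, with a summed level over 8 of 8 detected markers of 586100 to 708400 FPKM in ob/ob and 396200 to 498000 FPKM in ob/+. Markers of acinar cells without the trypsins were also present, with 25 of 26 at a mean of 1 FPKM or more and a sum of 20430 to 68630 FPKM in ob/ob and 40170 to 140800 FPKM in ob/+. Acinar markers were thus present in all 8 libraries, in differing amounts, and the trypsin genes are set against the digestive enzymes below. Other markers also differed: those of alpha cells summed to 8666 to 12040 FPKM in ob/ob and 25250 to 31790 FPKM in ob/+, those of delta and PP cells to 2553 to 4050 FPKM in ob/ob and 9752 to 13230 FPKM in ob/+, and those of stellate cells to 11.1 to 29.6 FPKM in ob/ob and 37.6 to 52.3 FPKM in ob/+. Duct markers overlapped, at 278.4 to 412.2 FPKM in ob/ob and 296.6 to 645.9 FPKM in ob/+. The part of these cell types in the trypsin levels was not tested. In bulk RNA, fewer cells of a type and less RNA per cell cannot be told apart.

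The cluster held abundant and scarce genes, and the genotypes stood apart in most of the scarce ones. Of the 10 genes, 6 (1810009J06Rik, Gm2663, Prss3, Gm5771, Gm10334 and Prss1) were higher in every ob/ob library than in any ob/+ library, a pattern shown by 9.75% of all tested genes; 0 were lower without overlap, against 10.7% of tested genes. The other 4, Prss2, Try4, Try5 and Try10, overlapped between the genotypes. The genes that did not overlap lay in 2 runs along the chromosome, the first pair at one end and the 4 consecutive genes from Prss3 to Prss1.

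Prss1 shares its name with the human gene PRSS1, whose product is the main cationic trypsinogen in human and is mutated in hereditary pancreatitis. Its levels in libraries 1 to 4 were 17.31, 12.24, 16.07 and 17.24 FPKM in ob/ob, against 0.47, 0.44, 0.66 and 2.18 FPKM in ob/+. The lowest ob/ob library was 5.61-fold above the highest ob/+ library, which was ob/+ 4. Means were 15.7 ± 2.39 FPKM in ob/ob and 0.938 ± 0.834 FPKM in ob/+ (SD, n = 4 each), a 16.8-fold difference and a log2 fold change of 3.18 ± 0.25 (SE) on the log2(FPKM + 1) scale, which understates changes of scarce genes.

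Its neighbour Gm10334, a predicted trypsinogen gene, had 21.17, 16.17, 23.21 and 18.62 FPKM in ob/ob, against 0.34, 0.37, 0.62 and 2.74 FPKM in ob/+. Gm5771, which lies between Prss3 and Gm10334, had 62.72, 46.03, 46.97 and 42.52 FPKM in ob/ob, against 5.25, 4.53, 8.07 and 15.42 FPKM in ob/+. In both genes ob/+ 4 was the ob/+ library nearest to the ob/ob range and still lay clear of it. The fold of means was 19.5 for Gm10334 (19.8 ± 3.06 FPKM in ob/ob, 1.02 ± 1.16 FPKM in ob/+) and 5.96 for Gm5771 (49.6 ± 8.98 FPKM in ob/ob, 8.32 ± 4.98 FPKM in ob/+).

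At the other end of the cluster, 1810009J06Rik had 14.01, 10.34, 15.54 and 12.48 FPKM in ob/ob, against 0.55, 1.4, 0.35 and 0.23 FPKM in ob/+. Here the highest ob/+ library was ob/+ 2 and the lowest ob/+ 4, unlike in the genes above. The fold of means was 20.7, with 13.1 ± 2.22 FPKM in ob/ob and 0.633 ± 0.528 FPKM in ob/+. Gm2663 had 18.32, 9.14, 14.59 and 13.8 FPKM in ob/ob and was listed at 0 in ob/+ 1, ob/+ 2 and ob/+ 3 and at 0.43 FPKM in ob/+ 4. No fold is given for it against libraries listed at 0. The 12 of 12 housekeeping genes looked at were above 0 in every library. Their lowest value was 6.65 FPKM, for Tbp, so they do not bear on zeros of a scarce gene.

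Prss3 was the most abundant of the 6 genes without overlap and the one with the narrowest gap. It had 218.99, 140.68, 136.23 and 162.67 FPKM in ob/ob, against 33.02, 38.51, 58.63 and 126.8 FPKM in ob/+. The lowest ob/ob library was 1.07-fold above ob/+ 4. Means were 164.6 ± 38.0 FPKM in ob/ob and 64.2 ± 43.1 FPKM in ob/+, a 2.56-fold difference.

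**Figure D1:**
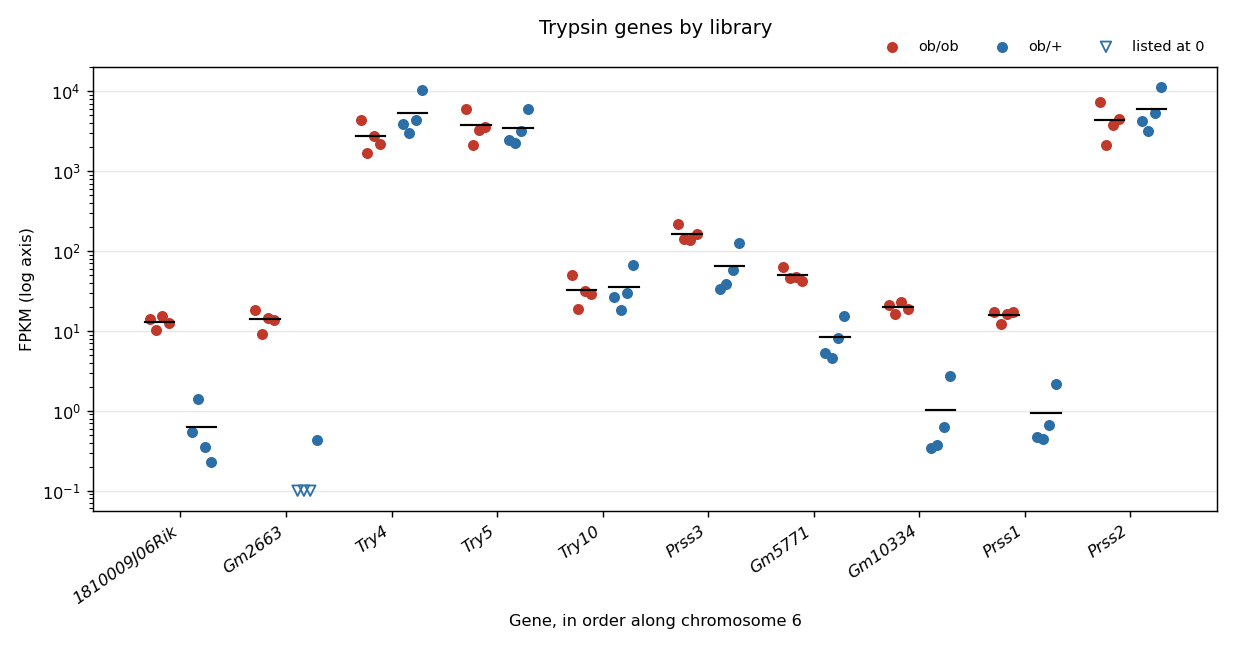
FPKM of each trypsin gene on a log axis, with genes in order along chromosome 6; red points are the ob/ob libraries and blue points the ob/+ libraries (libraries 1 to 4 from left to right), black bars are means and open triangles mark libraries listed at 0. The 6 genes 1810009J06Rik, Gm2663, Prss3, Gm5771, Gm10334 and Prss1 show no overlap between genotypes, and Prss2, Try4, Try5 and Try10 do.

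Prss2, Try4 and Try5 made up nearly all RNA of the listed trypsin genes. The list leaves out the trypsinogen gene 2210010C04Rik, which averaged 1564 FPKM in ob/ob and 3370 FPKM in ob/+. Prss2, the anionic trypsinogen, had 7306.98, 2145.7, 3748.44 and 4502.77 FPKM in ob/ob, against 4229.93, 3199.67, 5288.16 and 11370.92 FPKM in ob/+. Try4 had 4397.15, 1690.63, 2748.89 and 2181.77 FPKM in ob/ob, against 3876.91, 2964.8, 4412.73 and 10372.84 FPKM in ob/+. In both genes ob/+ 4 was the highest of all libraries and ob/ob 2 the lowest.

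Try5 had 6027.17, 2151.05, 3314.46 and 3606.17 FPKM in ob/ob, against 2426.86, 2245.61, 3174.44 and 5942 FPKM in ob/+. Its highest libraries, ob/ob 1 and ob/+ 4, were nearly level. Try10, a scarce gene, had 50.52, 18.71, 32.07 and 28.93 FPKM in ob/ob, against 26.62, 18.21, 29.76 and 67.25 FPKM in ob/+. The fold of means, ob/ob over ob/+, was 0.735 for Prss2, 0.509 for Try4, 1.10 for Try5 and 0.918 for Try10, and the ranges of the genotypes overlapped for each. The direction of Try5 and Try10 also turned with the scaling: their log2 fold changes of 0.15 and -0.04 became -0.15 for Try5 when the scaling skipped acinar genes, and 0.08 for Try10 with the 10 most abundant genes left out.

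Prss2, Try4 and Try5 held 97.0% ± 0.77 of the summed FPKM of the listed trypsin genes in ob/ob and 99.3% ± 0.07 in ob/+. The gene 2210010C04Rik is not in that sum. The 6 genes without overlap held 2.68% ± 0.77 in ob/ob and 0.491% ± 0.078 in ob/+, with sums of 276.8 ± 52.2 FPKM in ob/ob and 75.3 ± 49.9 FPKM in ob/+. By mean level in ob/ob the order was Prss2, Try5, Try4, Prss3, Gm5771, Try10, Gm10334, Prss1, Gm2663 and 1810009J06Rik. In ob/+ it was Prss2, Try4, Try5, Prss3, Try10, Gm5771, Gm10334, Prss1, 1810009J06Rik and Gm2663. The ranges of neighbours in these orders overlapped, except that Try4 stood clear of Prss3 and Prss3 clear of Gm5771 in ob/ob, and Try5 clear of Prss3, Try10 clear of Gm5771 and Gm5771 clear of Gm10334 in ob/+. These ranges pool libraries and do not compare genes library by library. Within each library, for example, Try5 was above Try4 in ob/ob and Prss3 above Try10 in ob/+.

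In the fit over 11747 genes that reached 1 FPKM in at least 4 libraries (limma, Benjamini-Hochberg adjusted p under 0.05), 8.21% of genes were called higher in ob/ob and 10.6% lower. All 10 trypsin genes passed this filter, Gm2663 through the ob/ob libraries alone; Prss1, Gm10334 and 1810009J06Rik each reached 1 FPKM in 1 ob/+ library. Of the 10, 5 were called higher (1810009J06Rik, Gm2663, Gm5771, Gm10334 and Prss1), 0 lower and 5 not called; at an unadjusted p under 0.05 limma also gave 0 lower. Since this contrast helped to choose the genes, nothing is read from their counts. The median log2 fold change was 2.04 over the 10 genes and -0.07 over all tested genes. The 2208 genes called in all (965 higher, 1243 lower) became 4832 without ob/+ 4 and 1434 without ob/+ 1, and the split moved to 477 higher and 7006 lower when the scaling skipped acinar genes, which shifted the median of all genes to -0.33.

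Ratios to Prss2 compare the genes within a library, relative to the trypsinogen with the highest mean in both genotypes. Prss1 amounted to 0.237%, 0.570%, 0.429% and 0.383% of Prss2 in ob/ob, against 0.0111%, 0.0138%, 0.0125% and 0.0192% in ob/+. The gap was wider than in FPKM, with means of 0.405% ± 0.137 in ob/ob and 0.0141% ± 0.0035 in ob/+, a 28.6-fold difference. Among ob/ob libraries the ratio was lowest in ob/ob 1, where Prss2 was highest, and highest in ob/ob 2, where Prss2 was lowest. The size of the gap thus also depends on the level of Prss2. On the log2 scale the ratios differed by 4.80, with a pooled SD of 0.44 between libraries.

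The other genes without overlap in FPKM also stood apart as ratios. Gm10334 was 0.519% ± 0.207 of Prss2 in ob/ob and 0.0139% ± 0.0070 in ob/+ (37.5-fold), 1810009J06Rik 0.341% ± 0.131 in ob/ob and 0.0163% ± 0.0188 in ob/+ (20.9-fold), Gm5771 1.30% ± 0.588 in ob/ob and 0.138% ± 0.012 in ob/+ (9.39-fold), and Prss3 4.20% ± 1.60 in ob/ob and 1.05% ± 0.19 in ob/+ (3.99-fold). For Prss3 the ratios separated the genotypes more clearly than the levels did, with 2.997% to 6.56% in ob/ob and 0.781% to 1.204% in ob/+. Gm2663 ranged over 0.251% to 0.426% of Prss2 in ob/ob, against 0.00378% in ob/+ 4 and 0 in the other ob/+ libraries.

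The abundant genes also separated by genotype once set against Prss2, and not all in 1 direction. Try5 stood at 82.5%, 100.2%, 88.4% and 80.1% of Prss2 in ob/ob, against 57.4%, 70.2%, 60.03% and 52.3% in ob/+. Try4 stood at 60.2%, 78.8%, 73.3% and 48.5% of Prss2 in ob/ob, against 91.7%, 92.7%, 83.4% and 91.2% in ob/+. Try5 was thus above Try4 in every ob/ob library and below it in every ob/+ library. Try10 differed least, at 0.765% ± 0.116 in ob/ob and 0.588% ± 0.030 in ob/+, with a narrow gap (lowest ob/ob library 0.642%, highest ob/+ library 0.629%). Among the neighbours, 2210010C04Rik, known in mouse as the cationic trypsinogen and not on the list of 10, stood at 35.4% ± 1.86 of Prss2 in ob/ob and 56.0% ± 0.97 in ob/+. In all, 8 of the 9 ratios were higher in ob/ob without overlap and 1 lower; over all 11747 tested genes, ratios to Prss2 were higher without overlap for 1.45% and lower for 0.673%. The rule used these ratios, so nothing is read from that count.

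**Figure D2:**
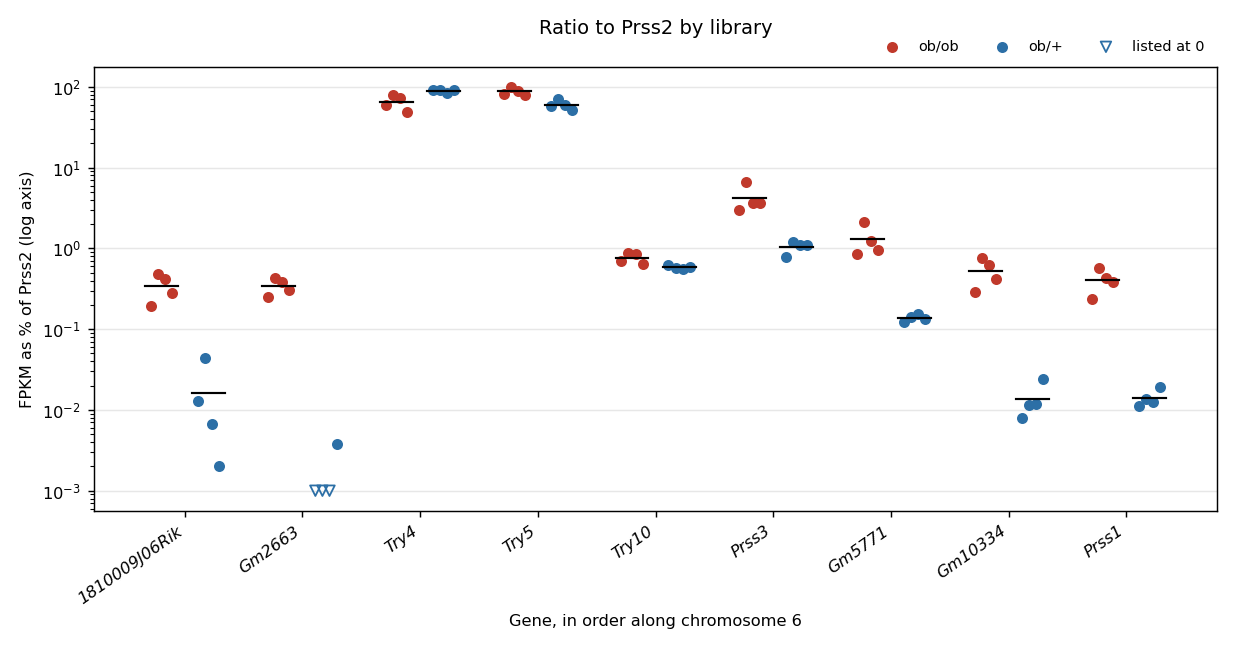
FPKM of 9 trypsin genes as a percentage of Prss2 in the same library on a log axis, ob/ob in red left of ob/+ in blue, with means as black bars and open triangles for libraries listed at 0. None of the 9 genes overlaps between genotypes; Try4 is the one that is lower in ob/ob.

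The other digestive enzymes give a second yardstick that holds no trypsin gene. They held 9.28%, 2.59%, 5.14% and 5.25% of summed FPKM in ob/ob, against 9.09%, 6.39%, 11.9% and 21.9% in ob/+. The shares overlapped, and the difference of -6.74 percentage points did not pass an exact two-sided permutation test over libraries (p = 0.0857, n = 4 each). The 10 trypsin genes held 1.91%, 0.621%, 1.10% and 1.07% of summed FPKM in ob/ob, against 1.24%, 0.986%, 1.58% and 3.17% in ob/+, again with overlap. Set against each other, the 10 trypsin genes amounted to 21.6% ± 1.68 of the enzyme FPKM in ob/ob and 14.2% ± 0.95 in ob/+, with no overlap. This sum leaves out 2210010C04Rik, which went the other way against the enzymes, as given below.

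Per 1000 FPKM of other enzymes, Prss2 came to 82.9 ± 3.06 FPKM in ob/ob and 56.6 ± 2.51 FPKM in ob/+, Try5 to 72.7 ± 6.78 in ob/ob and 33.9 ± 4.73 in ob/+, and Try4 to 53.8 ± 9.997 in ob/ob and 50.8 ± 4.17 in ob/+. On this scale 9 of the 10 were higher in ob/ob without overlap and Try4 overlapped. Over all tested genes set against the same enzymes, 3.45% were higher without overlap and 0.272% lower, and nothing is read from the count of trypsin genes. The ratio of the genotypes was 41.6-fold for Prss1 and 54.0-fold for Gm10334, 13.7-fold for Gm5771, 5.83-fold for Prss3 and 30.1-fold for 1810009J06Rik. It was 1.47-fold for Prss2, 2.14-fold for Try5 and 1.90-fold for Try10. Scarce genes did not follow the enzymes in proportion within ob/ob, as given below. Prss1 on this scale was 0.197 in the enzyme-rich ob/ob 1 and 0.471 in the enzyme-poor ob/ob 2. The folds of the scarce genes thus also depend on the enzyme content of the libraries. The trypsinogen gene 2210010C04Rik, outside the list of 10, came to 29.3 ± 0.71 FPKM in ob/ob and 31.6 ± 1.02 FPKM in ob/+. It was thus lower in ob/ob without overlap on this scale.

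The libraries of 1 genotype differed widely in enzyme RNA, which shows how each trypsin gene moved with it when genotype was constant. Among ob/ob libraries, ob/ob 1 held the most and ob/ob 2 the least enzyme FPKM, and 27 of the other enzymes, all but the scarce Cela3a, were 2.83-fold to 4.15-fold higher in ob/ob 1 (median 3.42-fold), while the median tested gene stood at 0.959-fold. Prss2 moved with them at 3.41-fold, Try5 at 2.80-fold, Try10 at 2.70-fold and Try4 at 2.60-fold. The scarce genes moved less, with Gm2663 at 2.004-fold, Prss3 at 1.56-fold, Prss1 at 1.41-fold, Gm5771 at 1.36-fold, 1810009J06Rik at 1.35-fold and Gm10334 at 1.31-fold. Of the 10 trypsin genes, 9 varied less between these ob/ob libraries than any of the 27 enzymes, and Prss2 lay within the range of the enzymes. The tested genes had quartiles of 0.889-fold and 1.03-fold, well below the enzymes, and these libraries were picked by their enzyme content. Nothing is read from that count.

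The spread of ratios was wider in ob/+ islets. There ob/+ 4 held the most and ob/+ 2 the least enzyme FPKM, and the 27 enzymes were 3.13-fold to 4.45-fold higher in ob/+ 4 (median 3.53-fold; median tested gene 0.771-fold). Within that range were Prss2 at 3.55-fold, Try10 at 3.69-fold, Try4 at 3.50-fold, Gm5771 at 3.40-fold and Prss3 at 3.29-fold, while Try5 lay below it at 2.65-fold. Prss1 was 4.95-fold and Gm10334 7.41-fold higher, both from levels under 1 FPKM in ob/+ 2. 1810009J06Rik stood in ob/+ 4 at 0.164 of its level in ob/+ 2, and Gm2663 has no ratio, since it was listed at 0 in ob/+ 2. These within-genotype ratios compare 1 library with 1 library and carry no test.

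**Figure D3:**
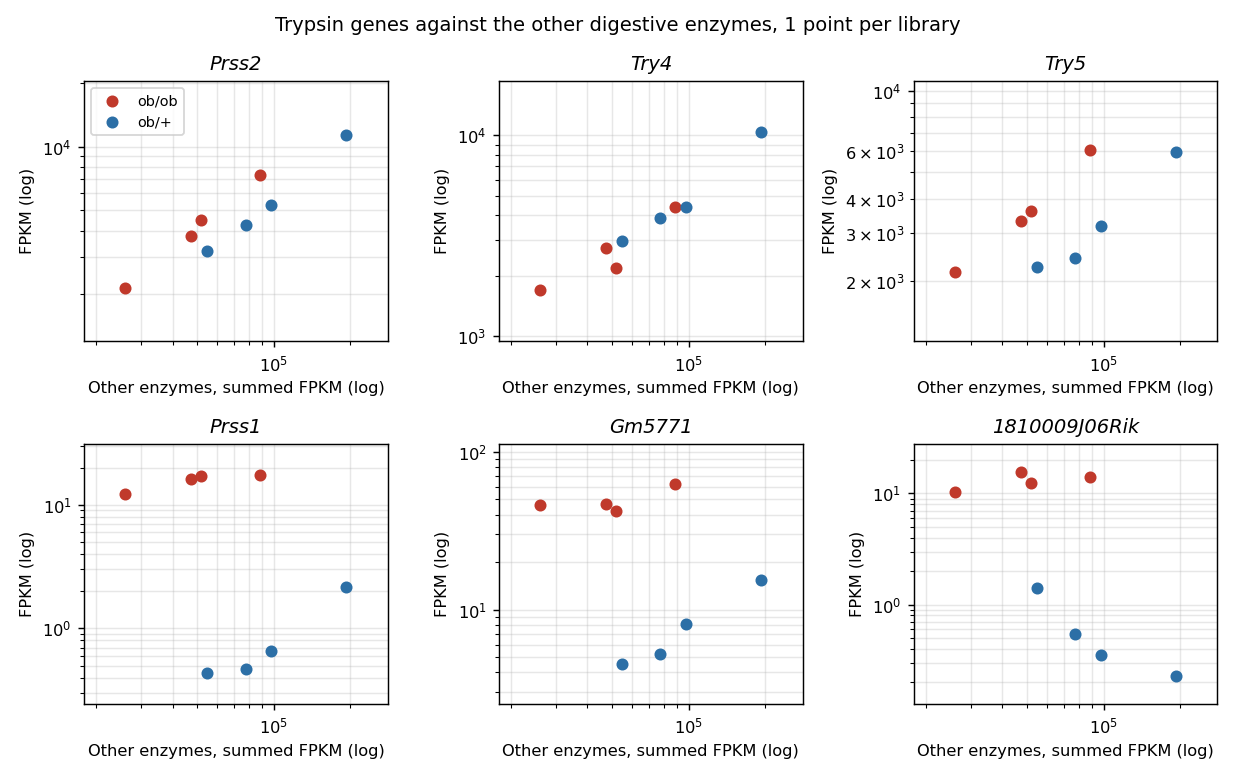
FPKM of 6 trypsin genes against the summed FPKM of the other digestive enzymes in the same library, both on log axes, 1 point per library (ob/ob red, ob/+ blue). Prss2 and Try4 climb with the enzymes in both genotypes, while Prss1, Gm5771 and 1810009J06Rik have all ob/ob points above the ob/+ points and vary less with the enzymes in ob/ob.

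The sequences of these genes set a limit on telling them apart. Over the 45 pairs, the annotated transcripts were 69.8% to 99.4% identical over the aligned bases (median 88.5%). The genes without overlap fell into 3 closest pairs: 1810009J06Rik with Gm2663 (99.4%), Prss3 with Gm10334 (98.9%) and Gm5771 with Prss1 (97.8%). Try4 and Try5 formed another pair (97.1%), Try10 was closest to Try4 (94.8%), and Prss2 was closest to Try4 (89.8%). How reads shared by several genes were counted is not given in the sources used here, so the separate levels within a pair are uncertain.

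Windows of 100 bases found in no other annotated transcript made up 100% of Prss2, 88.4% of Try10, 78.2% of Prss1, 74.5% of Gm5771, 74.4% of Try5 and 69.8% of Try4. They made up 58.2% of Gm10334, 55.1% of Prss3, 32.4% of 1810009J06Rik and 30.7% of Gm2663. The last pair shared windows only with each other, and Prss1, Gm5771, Gm10334 and Prss3 shared windows among themselves, plus Try10 for Prss1 and Gm5771. At this length no window of the 6 genes without overlap was shared with Prss2, Try4 or Try5. At 50 bases the unique share was 92.2% for Prss2 and 45.1% for Prss1, and windows of Prss1 then also occurred in Try4, Try5 and Prss2. Where such reads were counted for more than 1 gene or divided between genes, the levels within each sharing group would not be independent. Whether this holds for the trypsin genes was not tested. Among the other enzymes, Amy2a2, Amy2a3 and Amy2a4 had identical values in every library, such as 119.04 FPKM in ob/ob 1 and 351.12 FPKM in ob/+ 4.

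**Figure D4:**
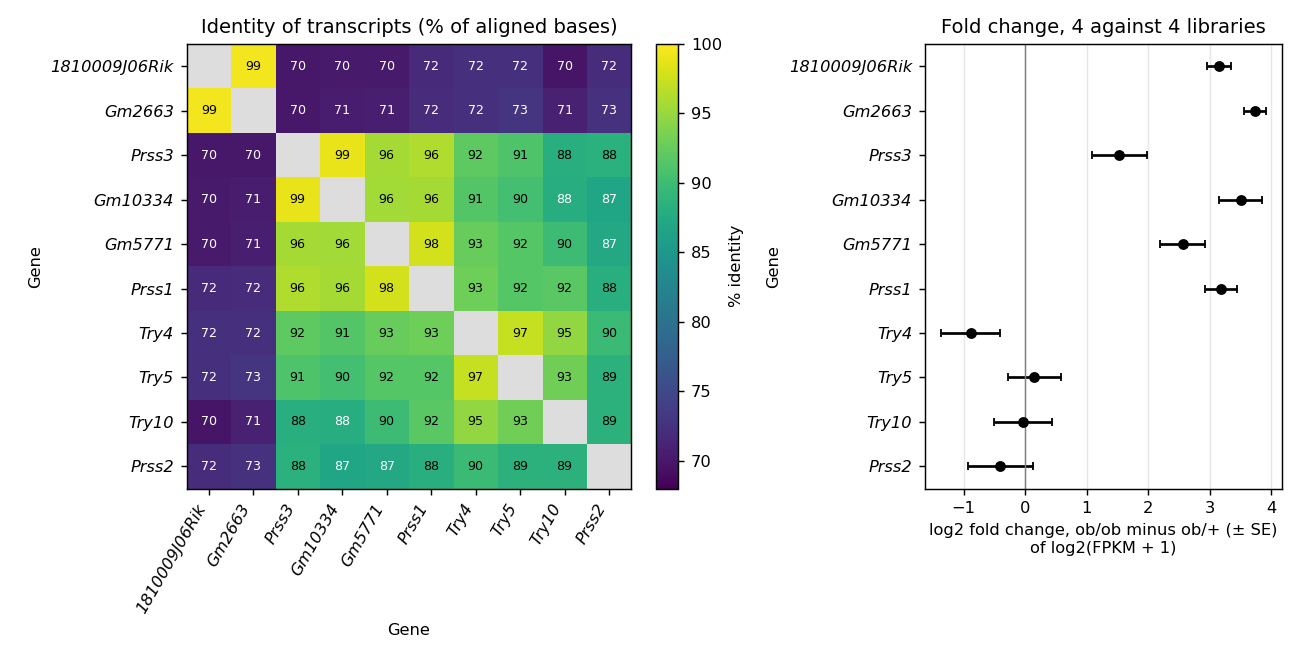
Left, percentage identity of the aligned bases between the annotated transcripts of the 10 trypsin genes; right, log2 fold change of log2(FPKM + 1), ob/ob minus ob/+, with its SE from the fit over 4 against 4 libraries. The 6 genes with fold changes from 1.52 to 3.74 form 3 pairs of 97.8% to 99.4% identity.

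A list of 16 genes covered activators and inhibitors of trypsinogen, proteases that degrade it and related genes such as the trypsin receptor F2rl1; 15 had a value and 9 were tested. Of these 2 were called higher in ob/ob and 1 lower, beside 8.21% and 10.6% of all tested genes, with a median log2 fold change of 0.05. Tmprss2, a transmembrane serine protease, averaged 5.51 ± 0.83 FPKM in ob/ob and 2.17 ± 0.47 FPKM in ob/+ (log2 fold change 1.04 ± 0.13 SE, limma adjusted p = 2.51e-06). Cst3, the cathepsin inhibitor cystatin C, averaged 514.2 ± 45.1 FPKM in ob/ob and 409.3 ± 12.7 FPKM in ob/+ (0.33 ± 0.08, limma adjusted p = 0.00567). F2rl1, a receptor that trypsin cleaves, was the lower one, with 4.02 ± 0.28 FPKM in ob/ob and 6.27 ± 1.54 FPKM in ob/+ (-0.51 ± 0.14, limma adjusted p = 0.0118).

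Spink1, the trypsin inhibitor of acinar cells, had 59.1 ± 29.5 FPKM in ob/ob and 91.5 ± 60.02 FPKM in ob/+, and was not called (limma adjusted p = 0.535). Ctrc, which degrades trypsinogen in human, had 8.17 ± 4.47 FPKM in ob/ob and 18.4 ± 11.5 FPKM in ob/+ (limma adjusted p = 0.226). Ctsb, the lysosomal protease that activates trypsinogen, had 60.1 ± 5.84 FPKM in ob/ob and 54.6 ± 2.60 FPKM in ob/+ (limma adjusted p = 0.367). Tmprss15, enteropeptidase, stayed at 0.01 FPKM or less in all libraries.

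Of 28 tested genes for other digestive enzymes, 0 were called higher and 1 lower by limma (0 and 4 at an unadjusted p under 0.05). The lower one was Cela3a, an elastase gene, with 0.36 ± 0.30 FPKM in ob/ob and 1.58 ± 0.72 FPKM in ob/+ (log2 fold change -0.91 ± 0.19 SE, limma adjusted p = 0.00307). The list had a median log2 fold change of -1.04 and a range of -1.88 to -0.06. Amy2a2, Amy2a3 and Amy2a4 entered this list and the enzyme sum as separate genes, although their values were identical in every library. Ctrb1, chymotrypsinogen B, had 10517 ± 5042 FPKM in ob/ob and 15517 ± 9040 FPKM in ob/+ (limma adjusted p = 0.55), Cela3b 2859 ± 1361 FPKM in ob/ob and 4180 ± 2397 FPKM in ob/+ (0.556), and Cpa1, a carboxypeptidase, 2001 ± 953 FPKM in ob/ob and 4310 ± 2323 FPKM in ob/+ (0.199). Amy2b, an amylase, had 47.0 ± 22.7 FPKM in ob/ob and 108.6 ± 59.0 FPKM in ob/+ (limma adjusted p = 0.176), and Pnlip, pancreatic lipase, 3277 ± 1555 FPKM in ob/ob and 6746 ± 3653 FPKM in ob/+ (0.237).

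Of 7 tested transcription factor genes of acinar cells, 0 were called by limma (0 higher and 1 lower at an unadjusted p under 0.05). Ptf1a had 2.21 ± 1.06 FPKM in ob/ob and 3.11 ± 2.13 FPKM in ob/+ (limma adjusted p = 0.647), and Rbpjl 5.48 ± 3.19 FPKM in ob/ob and 5.22 ± 2.57 FPKM in ob/+ (0.972). Without ob/+ 1 or without ob/+ 3, the companion genes called over the 3 lists were 2 higher and 0 lower. With the summed enzyme level as a covariate, 12 of the 43 tested companion genes were higher and 7 lower, beside 6.09% higher and 21.3% lower over all tested genes. The 28 tested enzymes are among these companion genes and also make up the covariate. Each was thus fitted beside a sum that holds it, and nothing is read from these counts.

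Of the 10 other tested genes within 1 Mb of the cluster, 2 were called higher and 0 lower by limma (1 lower at an unadjusted p under 0.05). Epha1, an ephrin receptor gene, averaged 1.69 FPKM in ob/ob and 0.963 FPKM in ob/+ (log2 fold change 0.45 ± 0.13 SE, limma adjusted p = 0.0203), and Gstk1, a glutathione transferase gene, 9.31 FPKM in ob/ob and 7.12 FPKM in ob/+ (0.34 ± 0.12, limma adjusted p = 0.0467). Both lie beyond Prss2. 2210010C04Rik, inside the cluster, was not called (-1.07 ± 0.53, limma adjusted p = 0.230), with 772.3 to 2629 FPKM in ob/ob and 1752 to 6333 FPKM in ob/+.

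The genes whose log2(FPKM + 1) over the 8 libraries was most like the summed trypsin genes were Erp27 (Pearson r = 0.991), Ctrb1 (0.991), Pnliprp2 (0.990), Spink1 (0.987) and Cela3b (0.987). Prss1 was most like a different set: Sftpd (0.990), Sgk2 (0.989), 1700040L02Rik (0.987), Mro (0.982) and Derl3 (0.982). The Prss1 to Prss2 ratio was most like Ndufa1 (0.992), Derl3 (0.991), Ccl28 (0.990), Enpp6 (0.990) and Gtf2b (0.990). These correlations are descriptions over 8 libraries in 2 genotypes that do not overlap for Prss1. Sftpd, surfactant protein D, had 1.84 ± 0.27 FPKM in ob/ob and 0.403 ± 0.192 FPKM in ob/+. Derl3, a gene of protein disposal from the endoplasmic reticulum, had 60.4 ± 3.51 FPKM in ob/ob and 19.9 ± 3.34 FPKM in ob/+. Ndufa1, a subunit of respiratory complex I, had 133.5 ± 8.50 FPKM in ob/ob and 61.4 ± 4.04 FPKM in ob/+.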

How the data were processed

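Islet RNA was measured in 8 libraries, 4 ob/ob and 4 ob/+, grouped by the genotype in the labels. The authors deposited 1 table per library with 1 value per gene; the deposited values fit FPKM by their range and sums, but neither file headers nor labels name the unit. Summed FPKM was 920734 to 1004230 in ob/ob and 820968 to 880570 in ob/+. The submitters' processing notes name Trimmomatic 0.36, DESeq2 1.20.0 and mm10 (GRCm38) without a role; no aligner is named, and the counting of shared reads is not given in the sources used here. Of 20715 listed genes, 17401 had a value; Lep was among the 3314 without one, so the mutated gene could not be checked.

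The fit covered 11747 genes that reached 1 FPKM in 4 or more libraries and used log2(FPKM + 1) in limma 3.58.1 (R 4.3.3, statmod 1.5.0; trend and robust empirical Bayes) and Benjamini-Hochberg adjustment, called at an adjusted p under 0.05, after a check on simulated data. The enzyme share was compared by an exact permutation test in SciPy 1.17.1. Absolute depth is unknown, so no counting interval is given. Replicates correlated at 0.987 to 0.996 on the log2 scale and shared at most 0.732% identical values, so each library was counted once. Transcript sequences came from GENCODE M21 and promoters from RefSeq.

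The trypsin genes, the companion lists and the tests were chosen with earlier results of these data known. The genes named were all 10 trypsin genes, the called genes (up to 4 by p) and 12 set genes of the 3 companion lists, the 5 genes most like each of 3 profiles, and the called neighbours within 1 Mb together with 2210010C04Rik, which were chosen after their values were seen. Alternatives covered scaling, filter, pseudocount, the variance model, an enzyme covariate, a replicate block and leaving out libraries; the omission of both ob/+ 4 and ob/ob 1 was added after the data were seen.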

Additional observations from a re-analysis of the deposited data

Results flagged for a closer look

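Each genotype gave sets of 4 libraries for the 10 trypsin genes as FPKM and for the 9 others as a percentage of Prss2. The trypsin and enzyme shares of summed FPKM were added. Of these 42 sets, 5 had 1 library far from the other 3. Chance gives about 1 in 20 for independent sets, but these share libraries and values, so that rate is no yardstick here. In ob/+ islets the library ob/+ 4, the one richest in digestive enzyme RNA, was far above the others for Prss1 (2.18 FPKM, others 0.44 to 0.66), for Gm10334 (2.74 FPKM, others 0.34 to 0.62) and for Gm2663 (0.43 FPKM, others listed at 0). Gm2663 as a percentage of Prss2 stood apart in the same library (0.00378%, others 0), which rests on the same value. With the others at 0, any value above 0 is flagged. For Try4 as a percentage of Prss2, ob/+ 3 was far below the others (83.4%, others 91.2% to 92.7%). The part of enzyme RNA in these values was not tested.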

How the results depend on the processing

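The log2 fold changes of 1810009J06Rik (2.97 to 4.40), Gm2663 (3.58 to 6.49), Gm5771 (2.28 to 3.13), Gm10334 (3.28 to 4.61) and Prss1 (2.96 to 4.20) are given as ranges over the alternatives that gave a value; since this contrast helped to choose the genes, nothing is read from their calls. Gm2663 gave none without any 1 ob/ob library, and Gm2663, Gm10334 and Prss1 none without both ob/+ 4 and ob/ob 1, because fewer than 4 libraries reached 1 FPKM. Prss3 ranged from 1.23 to 2.21. It was called under 6 alternatives, among them the omission of both ob/+ 4 and ob/ob 1 that was added after the data were seen. Nothing is read from these calls either. Try5 (0.15) turned to -0.15 when the scaling skipped acinar genes, -0.11 without ob/ob 1 and -0.02 without ob/+ 2, with 0.45 without ob/+ 4. The top of its range was 0.94, with the enzyme covariate. Try10 (-0.04) turned to 0.03 with upper-quartile scaling and 0.03 with median centring, 0.08 with the 10 most abundant genes left out, 0.82 with the enzyme covariate, 0.19 without ob/ob 2, 0.32 without ob/+ 4 and 0.09 without both ob/+ 4 and ob/ob 1; it was -0.29 without ob/+ 2, and its lowest value was -0.33 when the scaling skipped acinar genes. Prss2 (-0.41) turned to 0.57 with the enzyme covariate. The cause was not tested.

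The count of 5 called trypsin genes became 9 with the enzyme covariate (which called 3218 of all genes, 715 higher and 2503 lower). It ranged from 4 to 6 with 1 library left out. Without both ob/+ 4 and ob/ob 1 it was 3 higher and 1 lower of 7 tested. Since this contrast helped to choose the genes, nothing is read from these counts. The 2208 called genes became 3442 with upper-quartile scaling (1793 higher), 3429 with median centring (1823 higher), 7483 when the scaling skipped acinar genes (477 higher), 1469 at a mean of 5 FPKM, 4000 without both ob/+ 4 and ob/ob 1, and 1434 to 4832 with 1 library left out. The 4 companion genes became 9 when the scaling skipped acinar genes, 2 at a mean of 5 FPKM and 13 without the trend and robust options. They became 19 with the enzyme covariate, which is a sum of enzymes among them, and 2 to 6 with 1 library left out. The log2 difference of 4.80 in the Prss1 to Prss2 ratio was 3.59 from FPKM + 1, 5.35 against the summed enzymes and 4.61 to 5.04 with 1 library left out. The trypsin share difference of -0.57 percentage points ranged from -0.823 to -0.0953 with 1 library left out, and the enzyme share difference of -6.74 from -8.71 to -3.56; in both the smallest difference was the one without ob/+ 4. With a total that omits the 10 most abundant genes these differences were -0.86 and -15.2.

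Libraries with the same number did not deviate together in every pair (correlations -0.22 to 0.212). With 1 value per number, this check cannot decide whether the numbers pair the libraries, and the main fit was unpaired. A replicate block called 2674 genes and 5 trypsin genes, beside 2208 and 5 in the main fit. Depth, inferred from steps of low values, limits the ob/+ levels under 1 FPKM.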
